A study of Saccharomyces cerevisiae with 10 samples.

Results

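The hexose transporter genes HXT1 to HXT8 and the glucose sensor genes SNF3 and RGT2 were followed in a strain of the yeast Saccharomyces cerevisiae lacking EDC3 and in its wild type. The members were the probe sets that the platform annotation pairs only with these genes. This gave 10 probe sets for 10 genes among 9275 probe sets that are not controls, and each carried a single gene name; in all, 5656 genes had a probe set of their own. Edc3 is a cytoplasmic protein that helps the decapping enzyme act on mRNA. The tested strain was the edc3 deletion, called CFY25 in the sample labels and SYY14 in the design text, and it was set against the wild-type strain HFY114. Per the design text the strains are isogenic, and no other allele is named. Both were grown in YEPD, a rich medium with glucose as its sugar, at 30 °C without treatment, and 6 µg of total RNA went into each labelled cRNA. Each strain had 5 Affymetrix Yeast Genome S98 arrays, labelled as biological replicates 1 to 5 and carrying the experiment letters A, B, C, E and G. Each letter stands on 1 array of each strain. The labels state neither the culture density nor the glucose left at harvest.

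Yeast takes up glucose by facilitated diffusion through the Hxt proteins, a family of similar membrane carriers that differ in affinity. Hxt1 and Hxt3 are low-affinity carriers used when glucose is plentiful, while Hxt2, Hxt4, Hxt6 and Hxt7 have higher affinity and serve when it is scarce. Rgt2 and Snf3 resemble the transporters but act as sensors, for high and low glucose. Their signal leads to loss of the co-repressors Mth1 and Std1, which frees the HXT promoters from the repressor Rgt1; in parallel, plentiful glucose represses the higher-affinity genes through the repressors Mig1 and Mig2.

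The genes lie partly in clusters. In the gene order of the RefSeq R64 assembly, HXT7 and HXT6 are direct neighbours on chromosome IV, and only YDR344C separates them from HXT3. HXT4, HXT1 and HXT5 lie together on chromosome VIII, with AHT1 between HXT4 and HXT1. SNF3 and RGT2 also lie on chromosome IV, HXT8 on chromosome X and HXT2 on chromosome XIII. The probe sets of HXT6 and HXT7 carry the suffix of a sequence family, and these genes are near-identical copies, so each probe set may read RNA of both. The log2 difference between these probe sets stayed between 0.27 and 0.47 on the 10 arrays (SD 0.06), while each alone varied with an SD of 0.23 for HXT6 and 0.20 for HXT7. Their values are not independent of each other.

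The labels were checked against EDC3, which read 0.1 to 2.3 on the deletion arrays and 456.8 to 480.5 on the wild-type arrays. Array medians ran from 58.2 to 66.8. Experiments E and G stood apart: over 2618 bright probe sets their arrays of the same strain differed with a scaled median absolute deviation of 0.08 (deletion) and 0.09 (wild type) on the log2 scale, against 0.21 to 0.48 for the other pairs. The labels do not say whether E and G came from separate cultures; if they share an RNA, there are 4 independent experiments. In the instrument records the pixel size was 2.5 µm with a scan count of 1 for E, and 3 µm with a count of 2 for A and B; the fields were blank for C and no record was read for G.

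None of the tested transporter and sensor genes passed limma's test between the strains. Of the 10 members, 9 were bright enough to be tested, and limma called 0 of them, with 0 at an unadjusted p under 0.05 and each with an adjusted p of 0.999. In the whole table limma called 0.077% of 6492 probe sets. The median log2 difference of the 9 was 0.05, against -0.0037 over all tested probe sets, with 5 members higher and 4 lower in the deletion strain. On none of the 10 probe sets did the arrays of the strains separate, against 1.2% of all tested probe sets. With the experiment as a block, again 0 of 9 were called (0.447% of all), and 2 had an unadjusted p under 0.05 (23.1% of all). The signals are averages over a culture, so fewer cells carrying an mRNA and less of it per cell cannot be told apart. Signals of different probe sets are on scales of their own and are not compared with each other.

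**Figure D1:**
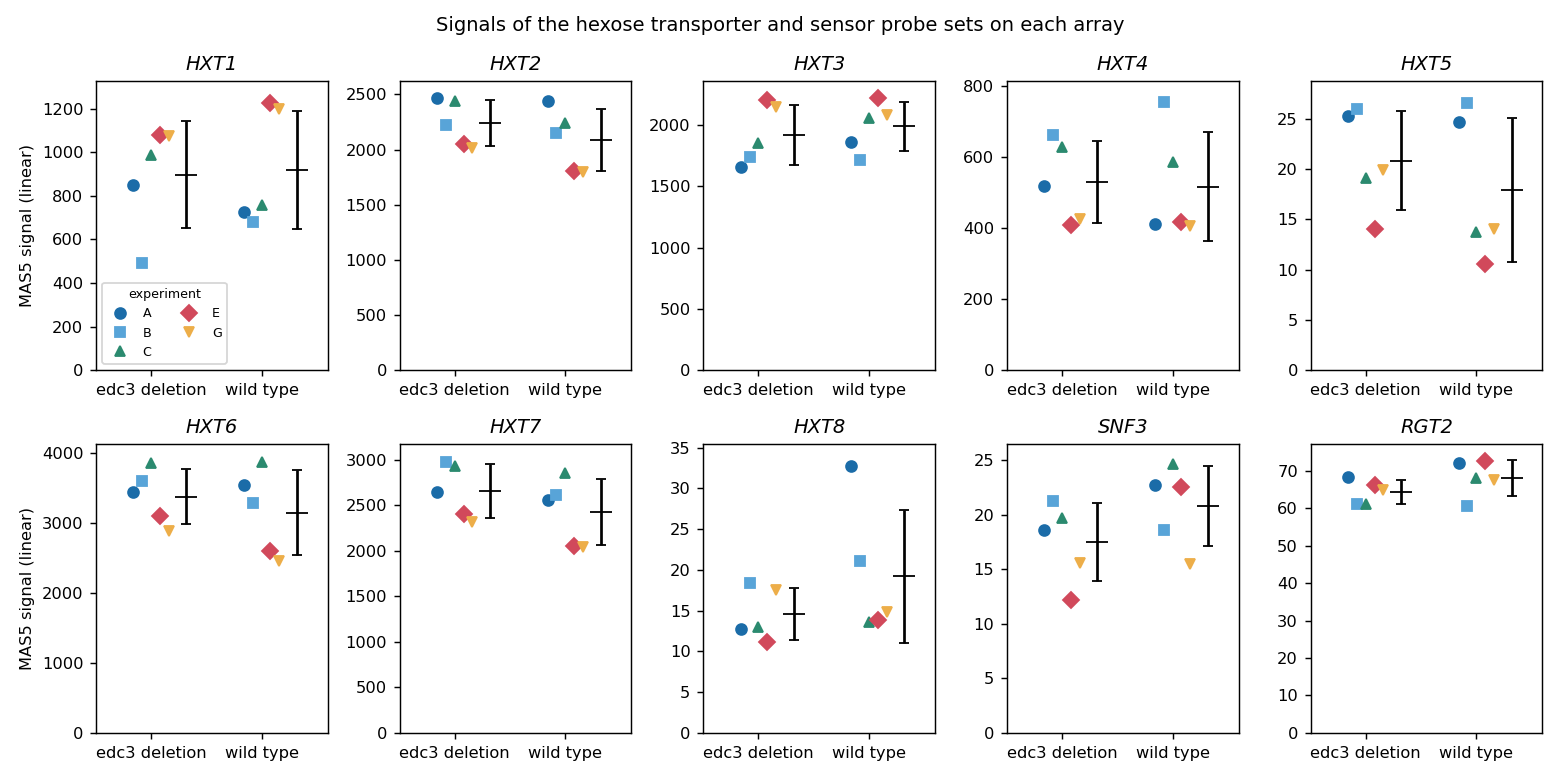
MAS5 signal (linear scale, from 0) of each member on every array, edc3 deletion left and wild type right, with a symbol per experiment and the mean ± SD of 5 arrays beside them. In all 10 panels the strains overlap; the E and G symbols lie close together within a strain for HXT1 to HXT4, above the other arrays for HXT1 and HXT3 and below them for HXT2, HXT6 and HXT7.

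HXT1 (YHR094C), the low-affinity carrier induced by high glucose, read 851.6, 491.7, 988.9, 1079.9 and 1075.8 in the deletion arrays of A, B, C, E and G. The wild-type arrays read 724.9, 680.6, 758.6, 1226.8 and 1197.7 in the same order. The lowest and the highest array thus fell in different strains, and each strain held low arrays in A to C and high ones in E and G. The means were 898 ± 245 in the deletion strain and 918 ± 270.5 in wild type (SD, n = 5 each). On the log2 scale they differed by -0.04 ± 0.24 (SE). The strain difference changed sign between experiments, with 0.23 in A, -0.47 in B, 0.38 in C, -0.18 in E and -0.15 in G.

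HXT3 (YDR345C), the low-affinity carrier expressed across a wide range of glucose, read 1654.1, 1739.5, 1851.1, 2206.8 and 2148.8 in the deletion arrays of A, B, C, E and G. Wild type read 1864.7, 1714.0, 2059.4, 2217.3 and 2083.1. The ranges of the strains covered nearly the same span. Its log2 difference was -0.05 ± 0.10 (SE), lower in the deletion strain in 3 of 5 experiments, with a 95% interval of 0.823 to 1.13 for the fold.

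Among the higher-affinity carriers, HXT2 (YMR011W) read 2463.4, 2221.7, 2437.9, 2052.0 and 2018.4 in the deletion arrays of A, B, C, E and G. Wild type read 2443.2, 2147.1, 2238.0, 1810.2 and 1800.5. In each experiment the deletion array was the higher of its pair, by 0.01 to 0.18 on the log2 scale, yet the ranges of the strains overlapped. The log2 difference was 0.11 ± 0.10 (SE) without the block and 0.11 ± 0.04 (SE) with it, where the unadjusted p was 0.0292 and limma's adjusted p 0.173.

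HXT7 (YDR342C) read 2649.2, 2976.4, 2931.8, 2406.6 and 2317.3 in the deletion arrays of A, B, C, E and G. Wild type read 2558.1, 2608.7, 2856.4, 2054.4 and 2035.6. The deletion array was again the higher of each pair, by 0.04 to 0.23. Its log2 difference was 0.14 ± 0.12 (SE) without the block and 0.14 ± 0.04 (SE) with it, where the unadjusted p was 0.0106 and limma's adjusted p 0.114, the lowest of the members. HXT2 and HXT7 were the 2 of 9 tested members with the same sign in all 5 experiments, a pattern that 20.4% of all tested probe sets showed. Neither passed in either fit, and with experiments A to C alone the log2 differences were 0.06 for HXT2 and 0.09 for HXT7.

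HXT6 (YDR343C), the near-identical copy of HXT7, read 3432.9, 3599.3, 3856.3, 3089.3 and 2875.3 in the deletion arrays of A, B, C, E and G. Wild type read 3535.6, 3275.2, 3859.8, 2592.7 and 2456.0. Unlike HXT7 its strain difference was slightly below 0 in A (-0.04) and C (-0.0013), and it was 0.14 in B, 0.25 in E and 0.23 in G. The log2 difference was 0.11 ± 0.13 (SE), and 0.11 ± 0.05 (SE, limma adjusted p = 0.225) with the block. On leaving out 1 array it ran from 0.03 (without wild-type array G) to 0.19 (without wild-type array C).

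HXT4 (YHR092C), a carrier induced by low glucose, read 518.8, 662.6, 628.2, 407.9 and 425.8 in the deletion arrays of A, B, C, E and G. Wild type read 412.7, 755.5, 587.0, 418.0 and 407.3. Experiment B held the highest array of both strains. The log2 difference was 0.05 ± 0.20 (SE), higher in the deletion strain in 3 of 5 experiments, with the widest gap, 0.33, in A.

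HXT5 and HXT8 gave dim signals. HXT5 (YHR096C), a carrier known from slowly growing and starved cells, read 25.3, 26.0, 19.1, 14.0 and 19.9 in the deletion arrays of A, B, C, E and G. Wild type read 24.7, 26.6, 13.8, 10.6 and 14.0. The log2 difference was 0.03 in A and -0.03 in B, and the deletion array was higher by 0.40 to 0.51 in C, E and G. Over all arrays the log2 difference was 0.28 ± 0.28 (SE), and 0.28 ± 0.14 (SE, limma adjusted p = 0.271) with the block. It was 0.13 with an offset of 16 added to the signals, and ran from 0.11 (without wild-type array E) to 0.44 (without wild-type array B) on leaving out 1 array.

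HXT8 (YJL214W), whose transport role is less well known, read 12.7, 18.4, 13.0, 11.2 and 17.5 in the deletion arrays of A, B, C, E and G. Wild type read 32.7, 21.1, 13.6, 13.8 and 14.8. Wild-type array A was the highest, and the other 9 arrays lay between 11.2 and 21.1. With a geometric mean signal of 16.1 it fell just under the filter at 16.8 and was not tested, whereas HXT5 and SNF3 lay just above it with 18.5 and 18.7. In a fit without the filter its log2 difference was -0.34 ± 0.27 (SE, limma adjusted p = 0.999). All 10 probe sets exceeded the highest of the 4 mouse control probe sets on every array, which read 4.8 at most.

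SNF3 (YDL194W), the sensor of low glucose, read 18.6, 21.2, 19.7, 12.2 and 15.6 in the deletion arrays of A, B, C, E and G. Wild type read 22.7, 18.6, 24.6, 22.5 and 15.5. The log2 difference was -0.26 ± 0.19 (SE), and the widest gap, -0.88, came from experiment E, whose deletion array was the dimmest of the 10. It was -0.14 without that array and -0.14 with an offset of 16. RGT2 (YDL138W), the sensor of high glucose, read 68.3, 61.3, 61.1, 66.3 and 64.8 in the deletion arrays. Wild type read 72.0, 60.6, 68.2, 72.6 and 67.5. RGT2 was the steadiest member, with an SD of 0.09 on the log2 scale over 10 arrays, against a median of 0.23 for all tested probe sets. Its log2 difference was -0.08 ± 0.09 (SE), lower in the deletion strain in 4 of 5 experiments.

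The exact two-sided permutation test of 5 against 5 arrays gave p from 0.183 (RGT2) to 0.881 (HXT1) over the 10 probe sets. This test takes no account of the pairing by experiment and cannot go below 0.00794. The widths of the intervals set what these arrays could show. For HXT1, HXT2, HXT3, HXT4, HXT6, HXT7 and RGT2 the 95% intervals of the fold, unadjusted and without the block, lay between 0.676 and 1.40. For the dim probe sets they reached 1.84 (HXT5) and 0.626 (SNF3). With the block, the intervals of the brighter 7 lay between 0.815 and 1.18.

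**Figure D2:**
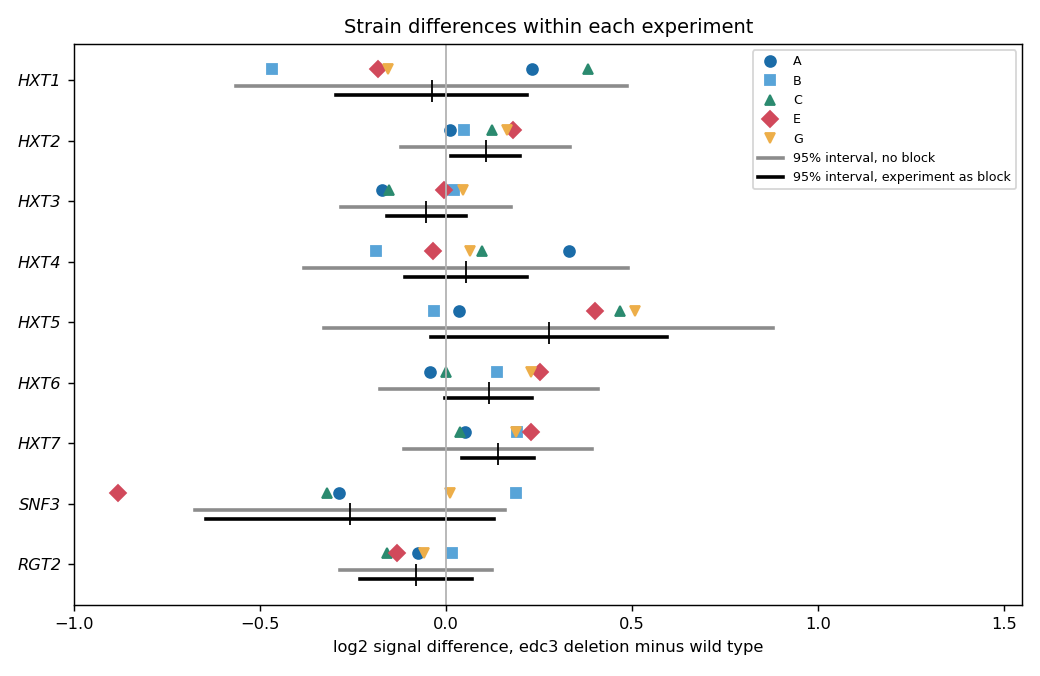
Log2 signal difference, edc3 deletion minus wild type, for the 9 tested members: symbols are the 5 experiments, the tick is the limma estimate, and bars are its 95% intervals without the block (grey) and with the experiment as a block (black). All grey bars cross 0; the black bars of HXT2 and HXT7 do not, and these intervals are not adjusted for the number of probe sets.

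More members were called between experiments than between strains. A moderated F test over the experiment letters, with strain in the model, called 7 of the 9 tested members, which is 77.8%, against 51.8% of all tested probe sets. That count holds both HXT6 and HXT7, whose values are not independent of each other. The 7 were all of the tested transporters, with limma adjusted p from 0.00284 (HXT4) to 0.0131 (HXT5). The count also holds HXT5, which averaged 14.3 in E and G and 22.0 in A to C, with the filter at 16.8. HXT5 was thus tested through the arrays of A and B, where it was high. The sensors were not called (0.399 for SNF3 and 0.41 for RGT2). SNF3 averaged 16.1 in E and G and 20.8 in A to C, with overlap and a log2 difference of -0.37. With the filter at 16.8, SNF3 was thus tested through the arrays of A to C. Among the 7 transporters, the mean signal of both strains differed between the lowest and the highest experiment from 1.28-fold (HXT3) to 2.16-fold (HXT5). For HXT5 the lowest experiment, E, lay under the filter.

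The transporters did not move in the same direction. The low-affinity genes HXT1 and HXT3 were higher on every array of E and G than on any array of A, B and C. The higher-affinity genes HXT2, HXT6 and HXT7 were lower on every array of E and G than on any other, with HXT6 and HXT7 not independent of each other. HXT1 averaged 1143 in E and G and 733 in A to C (geometric means of both strains), a 1.56-fold difference. HXT3 averaged 2163 in E and G and 1809 in A to C, a 1.20-fold difference. HXT2 averaged 1917 in E and G and 2322 in A to C, which lay 1.21-fold higher. HXT6 averaged 2742 in E and G and 3587 in A to C (1.31-fold higher in A to C). HXT7 averaged 2198 in E and G and 2759 in A to C (1.26-fold higher in A to C). Among all tested probe sets 9.5% were higher and 16.5% lower in E and G without overlap. The split into E and G against A, B and C was made with earlier results of these arrays known and is given as a description, with no test.

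HXT4 belonged with HXT2, HXT6 and HXT7 in direction, with 415 in E and G and 584 in A to C, but wild-type array A at 412.7 lay among the arrays of E and G. HXT5 averaged 14.3 in E and G and 22.0 in A to C, with overlap through experiment C. The direction was the same in both strains for each of these transporters. With quantile normalization in place of the authors' scaling each kept its direction, with log2 differences of E and G from A to C of 0.62 for HXT1, 0.20 for HXT3, -0.33 for HXT2, -0.49 for HXT6 and -0.39 for HXT7. For HXT1 the log2 difference of E and G from A to C was 0.53 in the deletion strain and 0.75 in wild type. For HXT6 it was -0.28 in the deletion strain and -0.49 in wild type. Neighbouring genes differed in direction: in E and G, HXT1 was higher while HXT4 and HXT5 beside it were lower, and HXT3 was higher while HXT6 and HXT7 were lower.

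**Figure D3:**
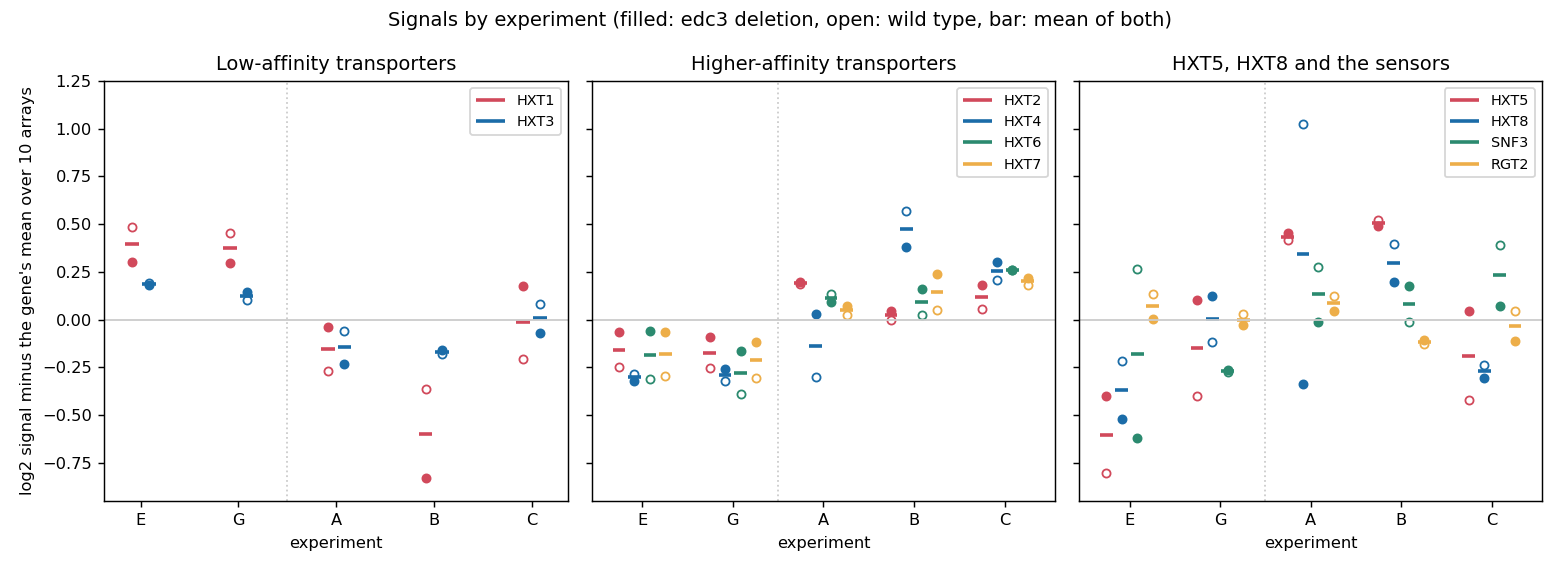
Log2 signal of each member minus its mean over 10 arrays, by experiment, with filled circles for edc3 deletion, open circles for wild type and a bar for the mean of both. HXT1 and HXT3 lie above 0 in E and G, and HXT2, HXT4, HXT6 and HXT7 below it; RGT2 stays near 0 throughout.

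In order of the experiment means, HXT1 ran from B (578) over A (786), C (866) and G (1135) to E (1151). A and C overlapped, as did G and E, while B lay below A and C below G in both strains. HXT4 ran from E (413) and G (416) over A (463) and C (607) to B (708), and E, G and A overlapped. Experiment B therefore held the lowest level of HXT1 and the highest of HXT4. With A, B and C alone, HXT4 was the 1 of 9 members called between experiments (limma adjusted p = 0.0401), against 16.6% of all tested probe sets, and the others ran from 0.0939 (HXT5) to 0.842 (SNF3). The calls of HXT1, HXT2, HXT3, HXT5, HXT6 and HXT7 were thus lost without the arrays of E and G, which also leaves fewer arrays. With E and G averaged as 1 experiment the 7 transporters were called again (adjusted p from 0.00741 to 0.0308; 45.3% of all). HXT3 and HXT5 missed the threshold without experiment E (adjusted p = 0.0501 and 0.0511).

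Genes that carry the sensors' signal to the HXT promoters were examined as a list of 10, all of which were tested. Between strains 0 passed, with or without the block, and their median log2 difference was -0.09. The lowest unadjusted p values belonged to STD1, the co-repressor related to Mth1, with a log2 difference of -0.22 ± 0.09 (SE, limma adjusted p = 0.983), and RGT1, the repressor of HXT genes, with -0.28 ± 0.13 (SE, limma adjusted p = 0.999). With the block the adjusted p was 0.0816 for STD1 and 0.073 for RGT1.

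Between experiments 6 of these 10 were called, close to the 51.8% of all tested probe sets. MTH1, the co-repressor that holds Rgt1 on the HXT promoters, read 27.1 in E and G and 55.3 in A to C (geometric means, adjusted p between experiments 0.000919). GRR1, the F-box protein that sends Mth1 to degradation, read 109 in E and G and 162 in A to C. CDC53, the cullin of the same ubiquitin ligase, read 154 in E and G and 219 in A to C. These 3 of 10 were lower in E and G on every array, as were 16.5% of all tested probe sets. YCK1, a casein kinase that acts below the sensors, was higher there on every array, as were 9.5% of all tested probe sets. RGT1 and TUP1, a general co-repressor, were also called, with overlap of the groups.

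The 11 genes of the Snf1 kinase and Mig1 repression branch were all tested, and 0 passed between strains in either fit, with a median log2 difference of 0.05. Between experiments 6 of the 11 were called, again near the 51.8% of the whole table, and their directions were mixed. MIG3, a repressor related to Mig1, read 33.0 in E and G and 16.3 in A to C. The filter lay at 16.8, so MIG3 was tested through the arrays of E and G, where it is high. MIG2, another relative, read 100.1 in E and G and 155 in A to C, with overlap. SIP2, a subunit of the Snf1 kinase, and REG1, which directs a phosphatase to it, were lower in E and G on every array. These were 2 of the 11, near the 16.5% of all tested probe sets that were lower without overlap. With quantile normalization the groups overlapped for SIP2. SNF4 and GLC7 were called with overlap. MIG1 itself was not called (adjusted p = 0.386) and neither was HXK2, the main hexokinase on glucose (0.349).

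Of 11 genes known to be repressed by glucose, 8 were tested, and FBP1, MLS1 and CAT8 fell under the filter. Between strains 0 passed without the block. With it 1 of the 8 was called, against 0.447% of all tested probe sets. This was HXK1, a hexokinase, higher in the deletion strain (log2 difference 0.27 ± 0.04, blocked SE, limma adjusted p = 0.0481). Without the block its limma adjusted p was 0.999, and the blocked fit takes E and G as separate experiments. SUC2, invertase, had a log2 difference of 0.41 ± 0.14 (SE, limma adjusted p = 0.931; 0.073 with the block). Between experiments 4 of the 8 were called, no more than the 51.8% of the whole table. HXK1 read 810 in E and G and 1673 in A to C. ADR1, an activator of glucose-repressed genes, read 14.4 in E and G and 27.0 in A to C. With the filter at 16.8, ADR1 was tested through the arrays of A to C, where it is high. ACS1, an acetyl-CoA synthetase, read 80.9 in E and G and 115.5 in A to C, and these 3 of 8 did not overlap, against 16.5% of all tested probe sets that were lower without overlap. PCK1, of gluconeogenesis, read 32.2 in E and G and 47.8 in A to C, with overlap. The list's median log2 difference of E and G from A to C was -0.45, and that of all tested probe sets -0.07. The list median holds ADR1 and also JEN1, which averaged 16.1 in E and G and 17.7 in A to C. Both passed the filter through the arrays of A to C, so this median is a description and was not tested.

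**Figure D4:**
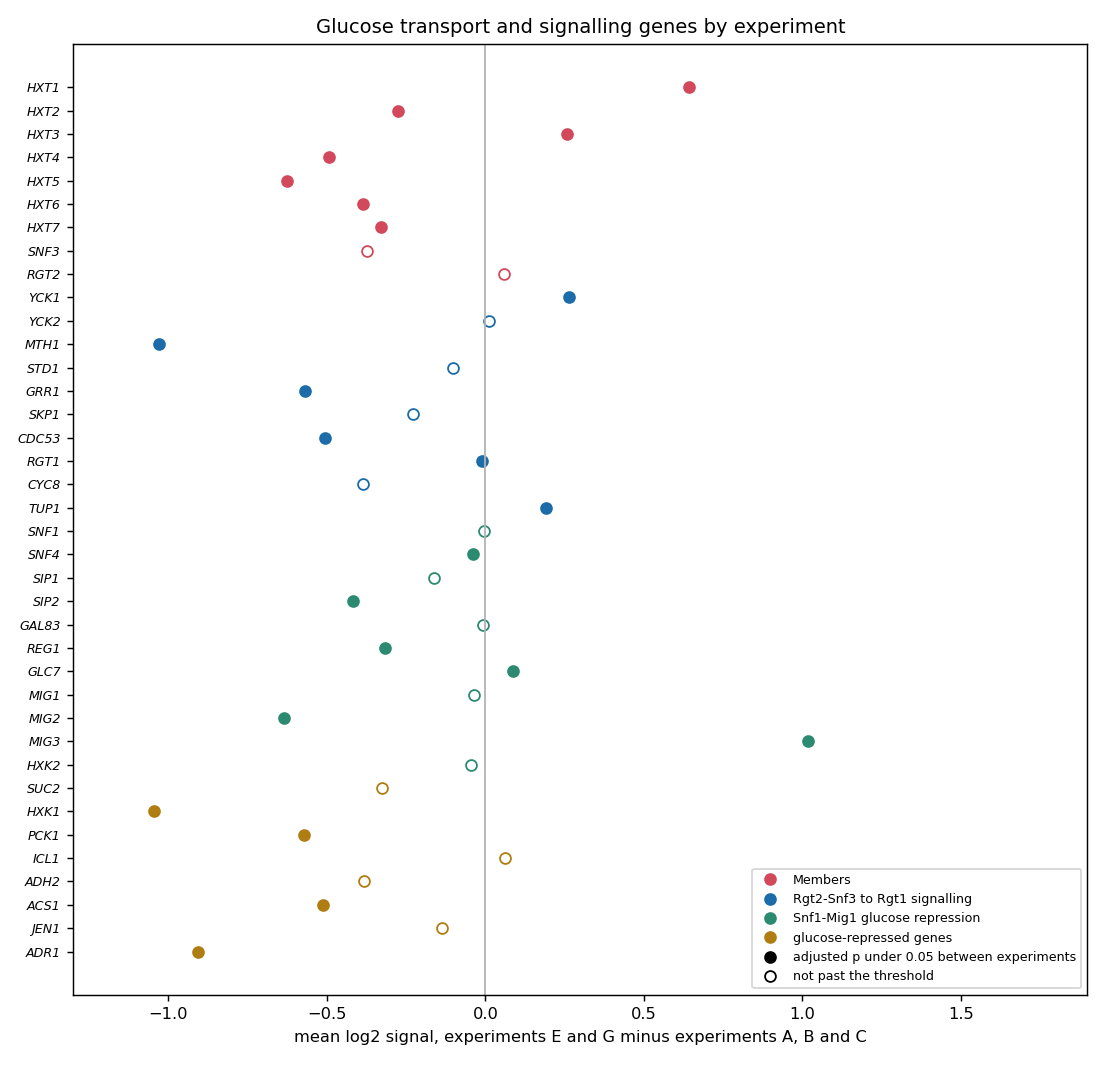
Mean log2 signal in experiments E and G minus that in A, B and C for the 9 tested members and the tested genes of the 3 pathway lists; filled circles passed the F test between experiments and open circles did not. HXT1 and MIG3 lie farthest to the right, and MTH1, HXK1 and ADR1 farthest to the left. Among the filled circles, HXT5 and ADR1 averaged under the filter at 16.8 in E and G, and MIG3 in A to C.

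The rest of the transporter family could not be followed at this signal level. GAL2, the galactose transporter, read 17.5 ± 6.03 in the deletion strain and 16.5 ± 5.23 in wild type (SD, n = 5 each). HXT10 read 4.38 ± 2.95 in the deletion strain and 6.10 ± 0.938 in wild type, and HXT14 1.66 ± 1.38 in the deletion strain and 1.02 ± 0.709 in wild type. HXT13, HXT15, HXT16 and HXT17 share 1 probe set, which read 16.3 ± 4.82 in the deletion strain and 16.6 ± 9.21 in wild type. HXT9 and HXT11 share 2 probe sets, with means under 14 in both strains. All 6 of these probe sets fell under the filter, and HXT12 was not analysed here.

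The tested members that varied most over the 10 arrays were HXT5, HXT1 and HXT4, with SDs of 0.48, 0.42 and 0.34 on the log2 scale. The untested HXT8 had an SD of 0.45. The single-gene probe sets most like HXT1 across the arrays were those of LYS20 (Pearson r = 0.978), YGR210C (0.969) and TAT2 (0.963). Most like HXT4 were FCY1 (0.968), RTT102 (0.966) and MAM33 (0.963), and most like HXT5 were NUP49 (0.951), RPT5 (0.940) and UBP2 (0.936). Arrays of the same experiment move together and E and G are nearly alike, so the 10 points are not independent. An r of at least 0.9 was reached by 35 of 5412 probe sets for HXT1, 41 for HXT4 and 24 for HXT5. These likenesses are descriptions of the 10 arrays.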

How the data were processed

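The deposited values are intensities: per the submitters' processing notes the authors obtained MAS5 signals, 1 per probe set and array, with no version given in the sources used here. Array scaling was kept as deposited, since 2%-trimmed means differed by 0.0186% at most. The table holds no detection calls. Signals were converted to log2, with 156 signals of 0 raised to 0.1. Of 9275 probe sets that are not controls (60 are), the dimmest 30% by mean log2 signal were left out, leaving 6492. Gene names came from the platform annotation, updated by gene identifier through RefSeq R64.

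The strain test was limma's (version 3.58.1, R 4.3.3; lmFit and eBayes with trend) on 5 arrays against 5 without a block. Experiments were compared with a moderated F test in the model of strain and experiment. Adjusted p is Benjamini-Hochberg over all tested probe sets, threshold 0.05, two-sided. Deviations from strain means of same-lettered arrays correlated at 0.475 to 0.713 across probe sets, so the shared letters were taken as pairing. Arrays of different letters and strains reached at most 0.219 for A, B and C. Between E and G they reached 0.583 and 0.635, near the same-letter values of 0.652 (E) and 0.692 (G). The pairing within E and G is therefore less certain. The scripts were tested on simulated data.

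All members and every listed gene called in either comparison could be named, otherwise the 2 of smallest p per list. The members, lists and alternatives were chosen with earlier results of these data known. Alternatives covered scaling, filter, offset, variance prior, block, the treatment of E and G, and leaving out arrays. P-values measure only the spread between these arrays.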

Additional observations from a re-analysis of the deposited data

How the results depend on the processing

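In all 19 alternatives to the strain comparison, 0 of the 9 tested members passed (limma adjusted p from 0.114 to 0.9999). Over the whole table the main count of 5 became 3 with eBayes without trend and 3 with E and G averaged, 2 with A to C alone, and 3 to 4 on leaving out 1 array. With the experiment as a replicate block it became 29, 8 with E and G averaged as well, and 3 with A to C alone; the block changed no call of a member. The uncalled difference of HXT1 changed sign to 0.049 with A to C alone, with or without the block, and ran from -0.13 to 0.16 on leaving out 1 array; that of HXT4 ran from -0.035 to 0.20. The other uncalled differences kept their sign on leaving out 1 array and ran from 0.06 to 0.17 for HXT2, -0.11 to -0.0021 for HXT3, 0.11 to 0.44 for HXT5, 0.03 to 0.19 for HXT6, 0.08 to 0.20 for HXT7, -0.36 to -0.14 for SNF3 and -0.12 to -0.06 for RGT2. Between experiments the whole-table count of 3361 became 1076 with A to C alone, which leaves fewer arrays, and 2350 to 3310 without 1 experiment. Of 99 member values between experiments, 91 stayed on the same side of the threshold and 8 lost their call, 6 of them with A to C alone. SNF3, HXT5 and HXT8, and of the tested genes of the other lists MIG3, ADR1 and JEN1, lie near the dim end of the table, and no detection call was available for them.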
